A study of Mus musculus with 2 samples.

Results

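The genes described here are 34 members of the Wnt pathway and of the crypt stem cell programme, chosen by symbol from a fixed list, out of 22350 gene symbols with a value in either library. The libraries hold messenger RNA of epithelial cells taken out of the colon of C57BL/6 mice, 1 from a Pkm2-/- preparation and 1 from a Wild Type (WT) preparation. Mice of both genotypes had received 2.5% dextran sulfate sodium (DSS) for 3 days, a polymer that injures the colon lining, and no untreated library was analysed here. The knockout targets the muscle-type pyruvate kinase gene Pkm, and neither the construction of the allele nor the number or age of the animals behind a library is given in the sources used here.

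Wnt ligands bind Frizzled receptors and their LRP coreceptors at the cell surface, which stops a cytoplasmic destruction complex from degrading beta-catenin, so that beta-catenin can join TCF/LEF factors on DNA. At the base of the colonic crypt this signal maintains the stem cells, and R-spondins that bind LGR receptors amplify it by removing the ubiquitin ligases that clear Frizzled from the membrane. Several targets of the pathway, among them those same ligases, feed back to limit it. Crypt stem cells are often divided into actively cycling cells that express Lgr5 and a reserve population that cycles slowly and is known for repopulating the crypt after injury.

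All 34 members had a value in both libraries, each under a single gene identifier. The unit is FPKM (sequenced fragments of a gene divided by transcript length in kilobases and by the mapped total), which allows levels of different genes to be compared. Genes whose mean over both libraries reached 1 FPKM are called measured below, and they include 30 members. The other 4 were Nkd1, Notum, Lef1 and Sp5. Among the 30, levels ran between 1.22 and 302 FPKM in the Pkm2-/- library and between 1.04 and 294 FPKM in the WT library, with Msi1 at the low end and Ctnnb1 at the high end in both.

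The members were slightly higher in the Pkm2-/- library, with few large differences. The log2 ratio, log2((Pkm2-/- FPKM + 1)/(WT FPKM + 1)), was above 0 for 28 of 30 members, against 58.8% of the 12429 measured genes, and the median of the members was 0.28 against 0.06 for all genes. Only Ccnd1, Tcf7, Myc and Cd44 were at least 1.5-fold higher on this scale, 4 of 30 against 4.46% of all genes. No member was at least 1.5-fold lower, a size reached by 5.29% of all genes, and none was at least 2-fold higher or lower, against 1.42% and 1.9% of all genes. Rescaling the libraries to equal medians turned the shares of all genes at least 1.5-fold higher and lower to 3.35% and 6.46%. With 1 library per genotype no test was possible, and every difference describes these 2 libraries without a replicate check. On GRCm38 the genes lie at chr7:144929931-144939925 on the minus strand (Ccnd1), chr11:52252371-52283014 on the minus strand (Tcf7), chr15:61985391-61990374 on the plus strand (Myc) and chr2:102811141-102901665 on the minus strand (Cd44), Lgr5 lies at chr10:115450311-115587780 on the minus strand and Prom1 at chr5:43993620-44102032 on the minus strand.

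Depth, estimated from the step between the lowest values, was about 2.02e+07 fragments in the Pkm2-/- library and 1.87e+07 fragments in the WT library, so that a 2 kb transcript at 1 FPKM rested on about 40.4 and 37.3 fragments. Folds printed with a gene are plain ratios of FPKM, and their 95% counting intervals cover counting error only. The interval lay above 1 for 25 of the 30 members, against 38.1% of all genes, and below 1 for Prom1 alone, against 23% of all genes. It included 1 for Rnf43, Tcf7l2, Lgr5 and Msi1.

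Marker genes of cell types and of proliferation also differed. All 10 epithelial markers were listed in both libraries, and their summed level was 6375 FPKM in the Pkm2-/- library and 5449 FPKM in the WT library. Their median log2 ratio, 0.26, was close to that of the members. Epcam, the epithelial cell adhesion molecule, stood at 712 FPKM in the Pkm2-/- library and 584 FPKM in the WT library, 1.22-fold higher. Of the 30 members, 16 had a larger fold than Epcam. The folds of the 10 epithelial markers ran from 0.862 for Cldn3 to 1.31 for Cdh1, and 2 of them were lower in the Pkm2-/- library. A comparison with Epcam therefore depends on the marker taken. All 15 proliferation markers had ratios above 0, with a median of 0.54 and summed levels of 541 FPKM in the Pkm2-/- library and 380 FPKM in the WT library. The differentiated colonocyte markers were lower in 14 of 15 cases, with a median of -0.81, while 58.8% of all genes had ratios above 0. Their summed levels were 9530 and 17703 FPKM in the Pkm2-/- and WT libraries. The exception, Krt20, stood at 333 FPKM in the Pkm2-/- library and 331 FPKM in the WT library. The marker lists were chosen with earlier results of these data known, so their counts are descriptions only. The T cell markers summed to 107 FPKM in the Pkm2-/- library and 27.2 FPKM in the WT library. Each of the 9 that were measured was higher by 1.5-fold or more, against 4.46% of all genes. Macrophage and dendritic cell markers summed to 29.6 FPKM in the Pkm2-/- library and 13.7 FPKM in the WT library. Laptm5, the most abundant of them, was at 9.84 and 3.29 FPKM in the same order. Of the 9 measured, 2 were lower, Lyz2 at 2.74 and 2.97 FPKM and Cd68 at 1.56 and 1.63 FPKM. B and plasma cell markers summed to 34.9 and 10.0 FPKM, fibroblast markers to 1.46 and 4.78 FPKM, and erythrocyte markers to 1.91 and 24.5 FPKM in the Pkm2-/- and WT libraries. Smooth muscle markers summed to 2.33 and 2.03 FPKM in the Pkm2-/- and WT libraries. Of the 10 goblet cell markers, 7 had ratios below 0 and 3 above, with a median of -0.32. At least 1.5-fold lower were 4 of them, against 5.29% of all genes. Goblet cell markers summed to 11051 and 12585 FPKM in the Pkm2-/- and WT libraries, most of it Muc2, at 7504 and 7418 FPKM. Neutrophil markers summed to 13.2 and 25.5 FPKM in the same order, nearly all of it Ly6g, at 13.1 and 25.4 FPKM. S100a8, S100a9, Mpo, Elane and Retnlg were listed in neither library and taken as 0. Endothelial markers summed to 0.991 and 1.66 FPKM, and markers of glia and neurons to 1.27 and 1.66 FPKM, in the Pkm2-/- and WT libraries. In bulk libraries fewer cells of a type and less RNA per cell cannot be told apart, and the part of cell composition in the values below was not tested. Pkm itself was at 86.2 FPKM in the Pkm2-/- library and 281 FPKM in the WT library. A gene-level value covers all of its isoforms, so it does not by itself check the loss of the Pkm2 isoform.

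**Figure D1:**
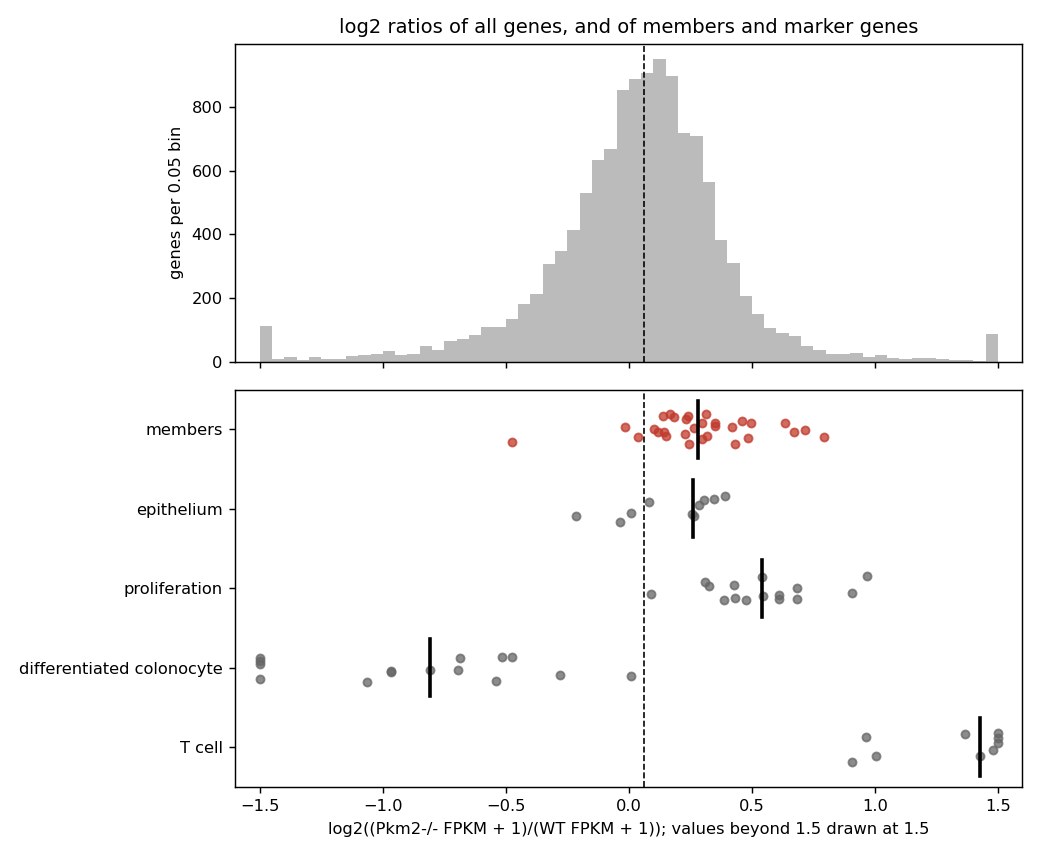
The upper panel counts the 12429 measured genes by log2((Pkm2-/- FPKM + 1)/(WT FPKM + 1)), and the lower panel shows the 30 measured members and the measured genes of 4 marker lists, each point a gene and each bar the list's median. The dashed line is the median of all genes, 0.06, values beyond 1.5 are drawn at 1.5, and the members' median of 0.28 lies beside that of the epithelial markers, 0.26, below that of the proliferation markers, 0.54, and above that of the differentiated colonocyte markers, -0.81.

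Receptors were compared first, because they set how strongly a cell can receive the signal. All 5 receptor and coreceptor genes among the members had log2 ratios above 0, against 58.8% of all genes. Their ratios lay between 0.14 and 0.46, with a median of 0.24, and all stayed under 1.5-fold. Lgr4, a receptor for R-spondins that is expressed along the whole crypt, was the most abundant of them, at 41.1 FPKM in the Pkm2-/- library and 37.2 FPKM in the WT library. This is a 1.10-fold difference (95% counting interval 1.05 to 1.15). The largest fold was that of Fzd5, a Frizzled receptor of the gut epithelium, at 25.7 FPKM in the Pkm2-/- library and 18.4 FPKM in the WT library, 1.39-fold higher (95% counting interval 1.32 to 1.47). Fzd7, a Frizzled known for its role in intestinal stem cells, stood at 4.12 FPKM in the Pkm2-/- library and 3.17 FPKM in the WT library, 1.30-fold higher (95% counting interval 1.11 to 1.53). The Frizzled pair kept its order of levels, since Fzd5 was 6.24 times Fzd7 in the Pkm2-/- library and 5.82 times in the WT library.

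The LRP coreceptors, which are phosphorylated when a ligand binds and then draw Axin to the membrane, differed less. Lrp6 was at 21.7 FPKM in the Pkm2-/- library and 18.2 FPKM in the WT library, 1.19-fold higher (95% counting interval 1.14 to 1.25). Lrp5 was at 16.8 FPKM in the Pkm2-/- library and 15.1 FPKM in the WT library, 1.11-fold higher (95% counting interval 1.05 to 1.17). Both folds lay under that of Epcam, as did that of Lgr4.

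**Figure D2:**
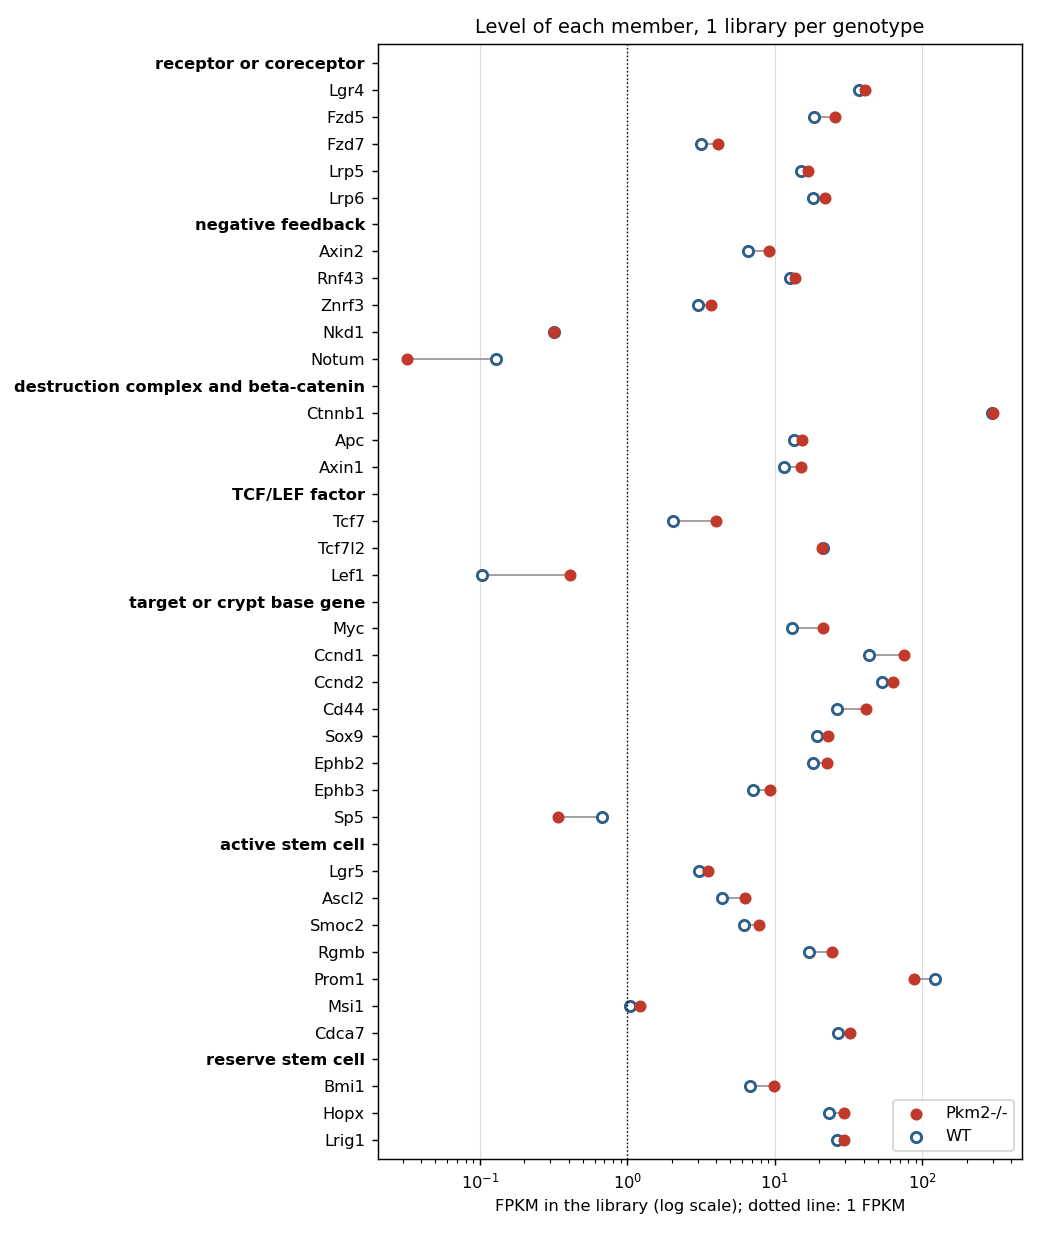
Each member's FPKM (log axis) is shown in the Pkm2-/- library (filled red) and the WT library (open blue), grouped by role, with a dotted line at 1 FPKM. Most red points lie a short way to the right of the blue ones, the measured members with the red point to the left are Prom1, at 87.1 and 121 FPKM in the Pkm2-/- and WT libraries, and Tcf7l2, at 20.9 and 21.1 FPKM, and Nkd1, Notum, Lef1 and Sp5 lie left of the line.

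Genes of negative feedback are switched on by beta-catenin and TCF and then dampen the signal. The 3 measured ones had log2 ratios of 0.10 to 0.42 with a median of 0.23, close to the 0.24 of the receptors, and all stayed under 1.5-fold. Axin2, a scaffold of the destruction complex and a widely used readout of Wnt signalling, stood at 9.15 FPKM in the Pkm2-/- library and 6.58 FPKM in the WT library, 1.39-fold higher (95% counting interval 1.24 to 1.55). Rnf43, a ubiquitin ligase that removes Frizzled from the membrane, was at 13.7 FPKM in the Pkm2-/- library and 12.7 FPKM in the WT library, 1.08-fold higher with a counting interval of 0.991 to 1.17. Its paralog Znrf3 was at 3.71 FPKM in the Pkm2-/- library and 3.01 FPKM in the WT library, 1.23-fold higher (95% counting interval 1.07 to 1.42). The level of Rnf43 was 3.70 times that of Znrf3 in the Pkm2-/- library and 4.22 times in the WT library.

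The other feedback genes were under the minimum mean of 1 FPKM. Nkd1, which binds Dishevelled and inhibits it, was at 0.316 FPKM in the Pkm2-/- library and 0.321 FPKM in the WT library, about 26 and 24 fragments. Notum, a secreted enzyme that removes the lipid from Wnt ligands, was at 0.0321 FPKM in the Pkm2-/- library and 0.128 FPKM in the WT library, about 1 and 5 fragments, and the interval of its fold ran between 0.0039 and 1.65. The interval of Nkd1 ran between 0.552 and 1.82. Both intervals included 1, so neither fold was distinguishable from 1 by counting error, and that of Notum rests on very few fragments.

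The genes of beta-catenin and its destruction complex differed little. Ctnnb1, which encodes beta-catenin, also a structural partner of E-cadherin in cell junctions, was the most abundant member at 302 FPKM in the Pkm2-/- library and 294 FPKM in the WT library. Its log2 ratio of 0.04 lay under the median of all genes, and it turned to -0.05 with equal library medians and to -0.03 with equal upper quartiles. Apc, the scaffold that tumours of the colon most often lose, was at 15.4 FPKM in the Pkm2-/- library and 13.4 FPKM in the WT library, 1.15-fold higher (95% counting interval 1.09 to 1.20). Axin1, the constitutive Axin scaffold, was at 15.1 FPKM in the Pkm2-/- library and 11.6 FPKM in the WT library, 1.30-fold higher (95% counting interval 1.19 to 1.42). The fold of Axin1 and the 1.39-fold of its inducible paralog Axin2 had overlapping intervals, and Axin1 stood at 1.65 times Axin2 in the Pkm2-/- library and 1.76 times in the WT library. A transcript level carries no information on the stability of the beta-catenin protein, through which the pathway acts.

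The TCF/LEF factors, which carry beta-catenin to its target genes, differed among themselves. Tcf7l2, the main factor of the family in intestinal epithelium, stood at 20.9 FPKM in the Pkm2-/- library and 21.1 FPKM in the WT library, with a counting interval of the fold of 0.920 to 1.06. Its log2 ratio was -0.02, and it was above 0 when the libraries were set to equal sums without genes of the mitochondrial genome. Tcf7, which encodes TCF1, had the second largest log2 ratio of all members, 0.72. It stood at 3.99 FPKM in the Pkm2-/- library and 2.04 FPKM in the WT library, 1.96-fold higher (95% counting interval 1.52 to 2.53). Lef1 had 0.406 FPKM in the Pkm2-/- library and 0.104 FPKM in the WT library, about 30 and 7 fragments, a ratio of 3.90 (95% counting interval 1.70 to 10.7) that lies below the minimum level used for counting.

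Shares of the summed FPKM of the family were taken over these 3 members and Tcf7l1, the family's other gene, which is described with the nuclear partners. Tcf7l2 held 74.0% in the Pkm2-/- library and 70.6% in the WT library. Tcf7 held 14.1% in the Pkm2-/- library and 6.81% in the WT library, and Tcf7l1 held 10.4% in the Pkm2-/- library and 22.3% in the WT library. Lef1 held 1.44% in the Pkm2-/- library and 0.348% in the WT library. Tcf7 and Lef1 are also well-known factors of T cells. The T cell marker Cd3e was at 7.52 FPKM in the Pkm2-/- library and 2.05 FPKM in the WT library, and all 12 T cell markers were listed in both. The part of T cells in the levels of Tcf7 and Lef1 was not tested.

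**Figure D3:**
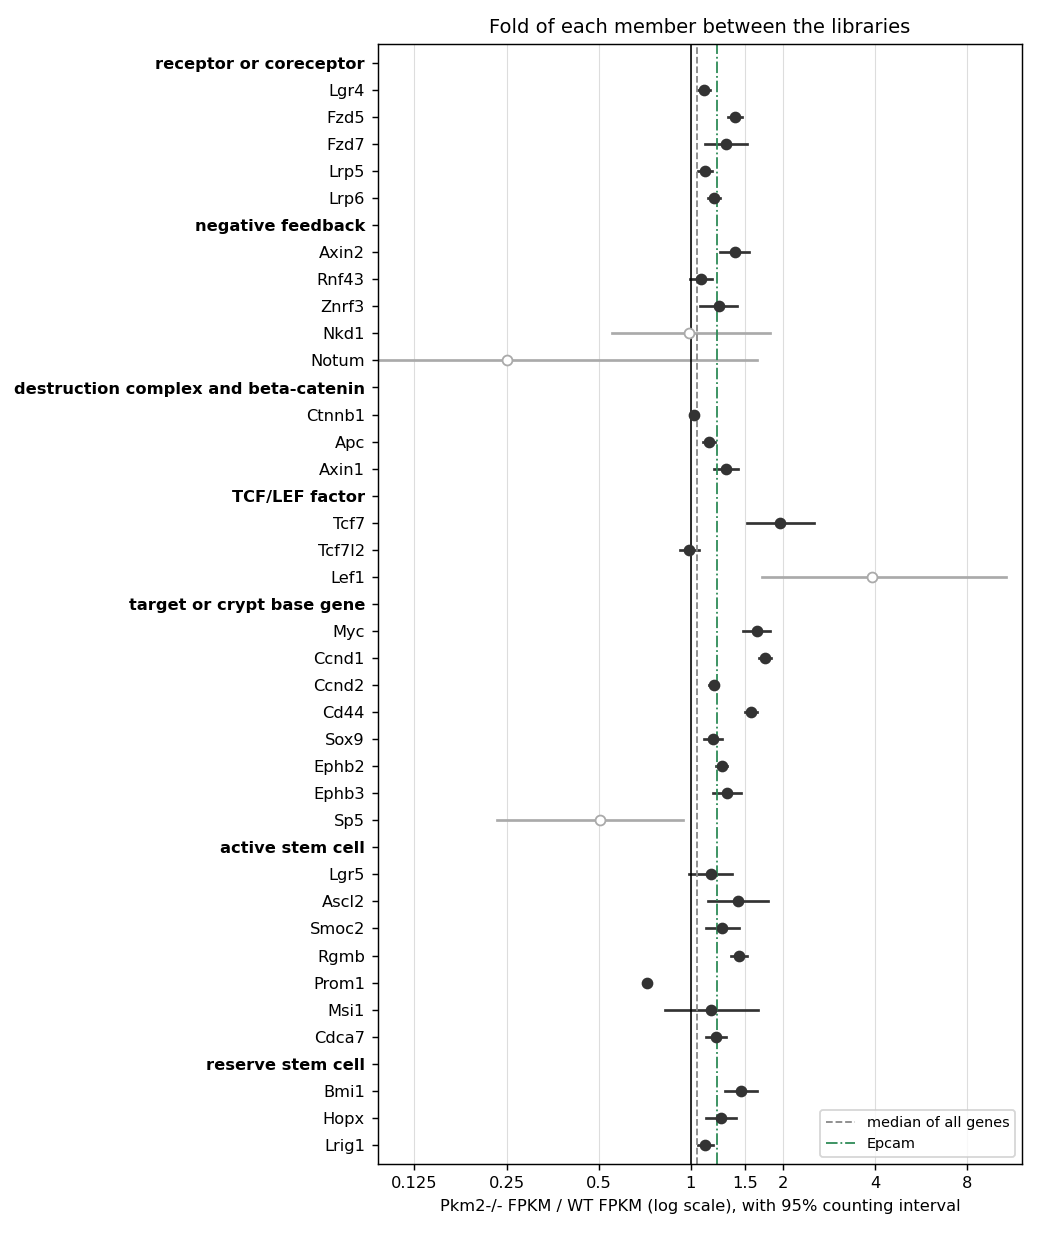
The fold of each member (Pkm2-/- FPKM over WT FPKM, log axis) is drawn with its 95% counting interval, in role order, with open grey points for the 4 members under a mean of 1 FPKM. The solid line marks no difference, the dashed line the median of all genes at 1.05 and the green line Epcam at 1.22, the interval of Notum is cut at the left edge, and Ccnd1 at 1.75, Tcf7 at 1.96, Myc at 1.64 and Cd44 at 1.57 stand farthest right among the filled points.

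Targets of the pathway and genes of the crypt base were higher in the Pkm2-/- library, apart from Sp5. All 7 measured ones had log2 ratios above 0, against 58.8% of all genes. Their ratios lay between 0.23 and 0.79 with a median of 0.35, and 3 of them were at least 1.5-fold higher, against 4.46% of all genes. With a pseudocount of 5 FPKM the log2 ratios of Myc and Cd44 were 0.55 and 0.57, under 1.5-fold, and Ccnd1 alone was past it. At that pseudocount 1.77% of all genes were at least 1.5-fold higher. Ccnd1, the cyclin D1 gene that drives cells out of the first gap phase, stood at 75.4 FPKM in the Pkm2-/- library and 43.2 FPKM in the WT library, 1.75-fold higher (95% counting interval 1.67 to 1.83). Its paralog Ccnd2 was at 63.1 FPKM in the Pkm2-/- library and 53.0 FPKM in the WT library, 1.19-fold higher (95% counting interval 1.15 to 1.23). The order of the D cyclins differed between the libraries, with Ccnd1 at 1.20 times Ccnd2 in the Pkm2-/- library and at 0.814 times Ccnd2 in the WT library.

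Myc, a transcription factor of growth and proliferation, was at 21.3 FPKM in the Pkm2-/- library and 13.0 FPKM in the WT library, 1.64-fold higher (95% counting interval 1.48 to 1.82). Cd44, a receptor for hyaluronan that marks the lower crypt, was at 41.3 FPKM in the Pkm2-/- library and 26.2 FPKM in the WT library, 1.57-fold higher (95% counting interval 1.5 to 1.65), and its log2 ratio was just under 1.5-fold with equal library medians, at 0.55, and with equal upper quartiles, at 0.57. Some proliferation markers had folds of like size, such as Mki67 at 35.7 FPKM in the Pkm2-/- library and 23.1 FPKM in the WT library, 1.55-fold higher. The folds of all 15 proliferation markers ran from 1.06 for Pcna to 1.99 for Ccna2. Cd44 and the D cyclins are also used by lymphocytes, and the part of proliferation and of lymphocytes in these values was not tested.

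Sox9 and the EphB receptors, which keep progenitors at the crypt base, were higher by less than 1.5-fold. Sox9, a transcription factor of stem and progenitor cells, was at 22.9 FPKM in the Pkm2-/- library and 19.4 FPKM in the WT library, 1.18-fold higher (95% counting interval 1.10 to 1.26). Ephb2 was at 22.7 FPKM in the Pkm2-/- library and 18 FPKM in the WT library, 1.26-fold higher (95% counting interval 1.21 to 1.32). The EphB receptors sort crypt cells by position through repulsion from ephrin-B ligands. Ephb3 was at 9.31 FPKM in the Pkm2-/- library and 7.09 FPKM in the WT library, 1.31-fold higher (95% counting interval 1.18 to 1.46), and Ephb2 exceeded it 2.44-fold in the Pkm2-/- library and 2.54-fold in the WT library.

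Sp5, a zinc finger factor and a direct target of beta-catenin in many tissues, stood apart among the targets in level and direction. It had 0.341 FPKM in the Pkm2-/- library and 0.677 FPKM in the WT library, about 14 and 27 fragments, a ratio of 0.504 with a counting interval of 0.232 to 0.946. The mean was under the minimum of 1 FPKM, so it entered no count.

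The promoters of the target genes were then examined for the core of the sequence that TCF/LEF factors bind. RefSeq promoter windows on GRCm38.p6, which run from 250 bases before the transcription start to 50 bases after it, were at hand for 21 members. The other 13 were Apc, Axin1, Ccnd1, Ccnd2, Lgr5, Lrp5, Lrp6, Msi1, Myc, Notum, Smoc2, Sox9 and Znrf3. The motifs CTTTGAT and CTTTGAA were searched on both strands. Of the 21 members, Sp5 alone held a match, a CTTTGAT on the sense strand that begins 104 bases before the start, against 9.88% of 27025 genes with a window of this length. A match is a description of letters and no match says nothing about binding elsewhere. The windows are printed for Sp5, the member with the match, in capitals, and, without a match, for Axin2, the readout of feedback, and Cd44, the target with the largest fold among those with a window. They lie at chr2:70474673-70474972 on the plus strand (Sp5), chr11:108920099-108920398 on the plus strand (Axin2) and chr2:102901616-102901915 on the minus strand (Cd44).
Sp5: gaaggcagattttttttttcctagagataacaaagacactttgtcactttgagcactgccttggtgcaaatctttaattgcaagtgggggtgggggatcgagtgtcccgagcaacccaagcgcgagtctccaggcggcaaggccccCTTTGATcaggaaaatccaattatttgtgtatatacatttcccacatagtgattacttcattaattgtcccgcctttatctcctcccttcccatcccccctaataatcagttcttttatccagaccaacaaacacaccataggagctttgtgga
Axin2: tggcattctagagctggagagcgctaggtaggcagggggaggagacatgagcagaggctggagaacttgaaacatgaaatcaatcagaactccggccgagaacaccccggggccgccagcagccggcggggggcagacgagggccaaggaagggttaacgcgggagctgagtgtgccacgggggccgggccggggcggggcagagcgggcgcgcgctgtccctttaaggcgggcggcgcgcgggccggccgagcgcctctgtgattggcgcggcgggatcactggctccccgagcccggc
Cd44: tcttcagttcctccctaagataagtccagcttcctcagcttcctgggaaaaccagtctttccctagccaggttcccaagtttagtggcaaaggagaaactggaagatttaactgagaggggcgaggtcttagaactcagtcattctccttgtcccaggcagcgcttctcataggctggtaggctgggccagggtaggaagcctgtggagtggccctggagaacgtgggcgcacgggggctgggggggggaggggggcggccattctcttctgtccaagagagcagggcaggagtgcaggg
The Axin2 window held 31 CpG dinucleotides at a GC content of 70.0%, the Cd44 window 6 at 58.0% and the Sp5 window 6 at 45.0%. The median GC content was 64.8% over the 32 windows of the members and 52.7% over all 32851 windows.

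Genes of active stem cells were compared next. Of 7, 6 had log2 ratios above 0, against 58.8% of all genes. No ratio reached 1.5-fold, with a range of -0.47 to 0.49 and a median of 0.26. Lgr5, the R-spondin receptor that defines these cells, was at 3.53 FPKM in the Pkm2-/- library and 3.04 FPKM in the WT library, 1.16-fold higher with a counting interval of 0.987 to 1.37. Its fold was not distinguishable from 1, or from the 1.22 of Epcam, by counting error. The level of the paralog Lgr4 was 11.6 times that of Lgr5 in the Pkm2-/- library and 12.3 times in the WT library.

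The stem cell factor Ascl2 and the secreted protein Smoc2 were of like abundance. Ascl2, a transcription factor that controls the stem cell state, was at 6.30 FPKM in the Pkm2-/- library and 4.41 FPKM in the WT library, 1.43-fold higher (95% counting interval 1.14 to 1.79). Smoc2, a matrix protein enriched in Lgr5 cells, was at 7.82 FPKM in the Pkm2-/- library and 6.17 FPKM in the WT library, 1.27-fold higher (95% counting interval 1.12 to 1.43). Rgmb, a coreceptor of BMP signalling that marks the same cells, was at 24.4 FPKM in the Pkm2-/- library and 17.0 FPKM in the WT library, 1.43-fold higher (95% counting interval 1.35 to 1.52), the largest log2 ratio of this group.

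Msi1, an RNA-binding protein of stem cells, was the least abundant of the group, at 1.22 FPKM in the Pkm2-/- library and 1.04 FPKM in the WT library, and its interval of 0.822 to 1.66 included 1. Cdca7, a nuclear protein of cycling crypt cells, was at 32.4 FPKM in the Pkm2-/- library and 26.8 FPKM in the WT library, 1.21-fold higher (95% counting interval 1.12 to 1.30). Prom1, which encodes the membrane protein CD133 and in the mouse gut is expressed well beyond the stem cells, ran the other way. It stood at 87.1 FPKM in the Pkm2-/- library and 121 FPKM in the WT library, 1.39-fold lower (95% counting interval 1.35 to 1.44). Prom1 was the second most abundant member after Ctnnb1, and it made the summed level of the group lower in the Pkm2-/- library, at 163 FPKM against 180 FPKM in the WT library, although 6 of its 7 genes were higher.

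Genes of the reserve stem cells were all higher by less than 1.5-fold, with log2 ratios of 0.15 to 0.49 and a median of 0.31. Bmi1, a Polycomb protein, was at 9.93 FPKM in the Pkm2-/- library and 6.80 FPKM in the WT library, 1.46-fold higher (95% counting interval 1.30 to 1.65). Hopx, a homeodomain protein used to mark slowly cycling crypt cells, was at 29.3 FPKM in the Pkm2-/- library and 23.4 FPKM in the WT library, 1.25-fold higher (95% counting interval 1.12 to 1.40). Lrig1, an inhibitor of ErbB receptors, was at 29.4 FPKM in the Pkm2-/- library and 26.4 FPKM in the WT library, 1.12-fold higher (95% counting interval 1.06 to 1.18).

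The groups of members overlapped. The median log2 ratio was 0.24 for receptors, 0.23 for negative feedback, 0.26 for active stem cells and 0.31 for reserve stem cells, and the ranges of these 4 groups overlapped. With 1 library per genotype the differences between groups were not tested. The medians of the targets and of the TCF/LEF factors, both 0.35, were higher than these 4, with only 2 genes behind that of the factors, and that of the destruction complex and beta-catenin, 0.18, was lower.

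The rest of the pathway was described by lists of 126 further genes, 77 of them measured. Their median log2 ratio was 0.11, against 0.28 for the members, with 5 at least 1.5-fold higher and 4 at least 1.5-fold lower. These counts are near the shares over all genes, 4.46% higher and 5.29% lower. Wnt ligands were scarce, since 1 of 19 reached a mean of 1 FPKM. This was Wnt5a, a ligand of non-canonical signalling, at 0.698 FPKM in the Pkm2-/- library and 1.84 FPKM in the WT library, 2.64-fold lower (95% counting interval 2.08 to 3.37). Wnt5a is a known product of stromal cells, whose fibroblast markers Dcn, Col3a1 and others summed to 1.46 FPKM in the Pkm2-/- library and 4.78 FPKM in the WT library, with Lum listed in neither library and Pdgfra not listed in the Pkm2-/- library, and their part in its level was not tested. No R-spondin reached 1 FPKM, while Wls, which carries Wnt ligands to the cell surface, was at 45.3 FPKM in the Pkm2-/- library and 37.1 FPKM in the WT library.

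Among other receptors, Ryk, a Wnt receptor of the tyrosine kinase family, was the most abundant at 19.8 FPKM in the Pkm2-/- library and 18 FPKM in the WT library. Of 8 measured, 4 had log2 ratios above 0 and 4 below, with a median of 0.03, against 0.24 for the receptors among the members. Fzd3 alone was at least 1.5-fold higher, against 4.46% of all genes. It stood at 3.09 FPKM in the Pkm2-/- library and 1.64 FPKM in the WT library. Of 4 measured secreted antagonists and Kremen genes, 2 had log2 ratios above 0 and 2 below, with a median of -0.08. Kremen1 was the most abundant, at 5.17 FPKM in the Pkm2-/- library and 4.33 FPKM in the WT library. Wif1, at 1.03 and 1.88 FPKM in the Pkm2-/- and WT libraries, and Kremen2, at 2.03 and 2.93 FPKM, were lower. Sfrp1 alone was at least 1.5-fold higher, against 4.46% of all genes. This secreted antagonist, a decoy that binds Wnt ligands, was at 2.05 FPKM in the Pkm2-/- library and 0.0786 FPKM in the WT library. The WT value rests on about 6 fragments, and the ratio of 26.0 had a counting interval of 12.6 to 76.9. The mean of Sfrp1, 1.06 FPKM, passed the minimum through the Pkm2-/- value alone.

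The intracellular transducers differed little. None of 19 was 1.5-fold apart, against 4.46% of all genes at least 1.5-fold higher and 5.29% lower. The most abundant, the casein kinase gene Csnk1a1, was at 116 FPKM in the Pkm2-/- library and 104 FPKM in the WT library. Of 16 nuclear partners, Tcf7l1 and Tle3 were at least 1.5-fold lower, against 5.29% of all genes. Tcf7l1, a TCF factor that mostly represses, was at 2.95 FPKM in the Pkm2-/- library and 6.66 FPKM in the WT library, 2.26-fold lower (95% counting interval 1.89 to 2.72). Tle3, a corepressor of the Groucho family, was at 9.02 FPKM in the Pkm2-/- library and 14.4 FPKM in the WT library, 1.59-fold lower (95% counting interval 1.49 to 1.70), while the corepressor Aes was the most abundant of the list at 197 FPKM in the Pkm2-/- library and 193 FPKM in the WT library. The 5 measured genes of other inhibitors stayed within 1.5-fold, led in level by Hdac1 at 95.3 FPKM in the Pkm2-/- library and 89.3 FPKM in the WT library.

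**Figure D4:**
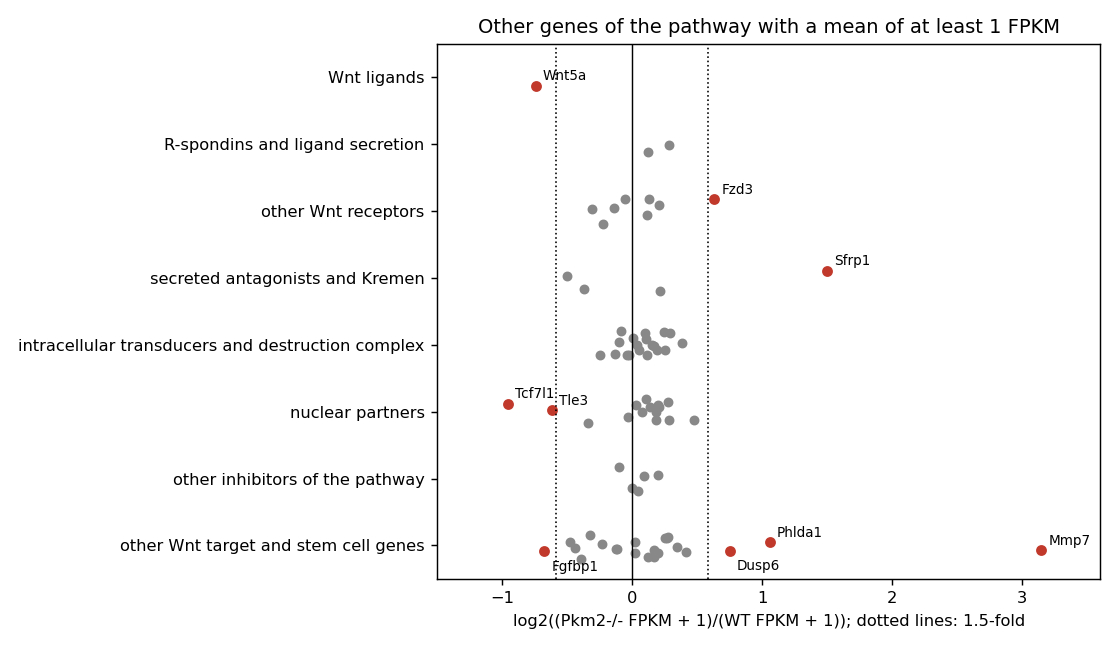
Each point is a gene of the pathway outside the members that was measured, by list, placed at log2((Pkm2-/- FPKM + 1)/(WT FPKM + 1)), with dotted lines at 1.5-fold. Most of the 77 genes lie between the lines, and the 9 red points beyond them are named.

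A last list held 29 other target and stem cell genes, 22 of them measured, with a median log2 ratio of 0.14. Of these, 3 were at least 1.5-fold higher, against 4.46% of all genes, and 1 was lower, against 5.29%. Mmp7, a matrix metalloproteinase and a target of beta-catenin in intestinal tumours, was at 30.4 FPKM in the Pkm2-/- library and 2.55 FPKM in the WT library, 11.9-fold higher (95% counting interval 8.94 to 16.1). Phlda1, a marker of intestinal stem and progenitor cells in humans, was at 22.4 FPKM in the Pkm2-/- library and 10.3 FPKM in the WT library, 2.18-fold higher (95% counting interval 1.93 to 2.47). Dusp6, a phosphatase that limits ERK signalling, was at 30.6 FPKM in the Pkm2-/- library and 17.8 FPKM in the WT library. Fgfbp1, an FGF-binding protein of crypt progenitors, was lower, at 44.3 FPKM in the Pkm2-/- library and 71.3 FPKM in the WT library. The most abundant of the list was Cd24a, a surface glycoprotein, at 245 FPKM in the Pkm2-/- library and 342 FPKM in the WT library. Olfm4, a stem cell marker of the human colon and the mouse small intestine, was not listed in the Pkm2-/- library and stood at 0.0646 FPKM in the WT library.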

How the data were processed

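RNA was measured in colon epithelial cells, 1 library per genotype. The values were FPKM as the authors deposited them, 1 per Ensembl gene, listed only above 0. The submitters' processing notes name Cufflinks 2.2.1, Cuffdiff (1.3.0 and 2.2.1), TopHat2 2.1.1 and Bowtie2 2.2.9, and build mm8. The deposited loci do not match mm8: GENCODE M21 held 99.4% of 22384 gene IDs, of which 99.96% overlapped their gene on GRCm38. FPKM depends on the mapped total, of which genes of the mitochondrial genome took 15.1% of summed FPKM in the Pkm2-/- and 16.8% in the WT library.

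Values sharing a symbol were summed (34 symbols), and an unlisted gene was set to 0. Genes were counted by size on log2 with a pseudocount of 1 FPKM at a mean of at least 1 FPKM. One fragment was worth the median FPKM times kb, between 0.03 and 0.075, in genes with 1 transcript over 1.5 kb, 0.0495 in the Pkm2-/- and 0.0536 in the WT library. The 95% Clopper-Pearson intervals used the longest annotated transcript and are approximate. Python 3.11.15, numpy 2.4.6, pandas 2.3.3 and scipy 1.17.1 were used. Every member is named. Other pathway genes are named when at least 1.5-fold apart or the most abundant of their list, and a few were added after their values were seen. Members and lists were chosen with earlier results of these data known. Alternatives were other pseudocounts, filters and scalings.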

Additional observations from a re-analysis of the deposited data

How the results depend on the processing

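No paired analysis was possible because there was 1 library per genotype, and no replicate could be left out. Under the 7 alternatives the median log2 ratio of the members lay between 0.20 and 0.32 and stayed above that of all genes by 0.17 to 0.24. Of 352 values compared, 316 moved by less than their counting error or, for counts, by no more than 1.5 times. An alternative that changes only the filter cannot move the ratio of a single gene, so such values were among the 316 by construction. No value that was at least 1.5-fold apart changed direction. With a pseudocount of 5 FPKM, 1 member (Ccnd1) was at least 1.5-fold higher instead of 4, the medians were 0.16 for receptors and 0.27 for targets, and of the other pathway genes 3 were at least 1.5-fold higher, 1 lower and 1 at least 2-fold higher. At this pseudocount 1.77% of all genes were at least 1.5-fold higher and 2.65% lower. With a pseudocount of 0.1 FPKM, 7 other pathway genes were at least 1.5-fold lower, against 7.24% of all genes, and 2 at least 2-fold lower. At a mean of at least 5 FPKM, the TCF/LEF group held Tcf7l2 alone, at -0.015. Of the other pathway genes 3 were then higher by 1.5-fold or more and 2 lower, against 3.83% and 4.43% of all genes. With equal library medians the medians were 0.16 for receptors, 0.10 for the destruction complex and 0.27 for targets, and 1 other pathway gene was at least 2-fold lower, as with equal upper quartiles (1). Under both scalings 3 members instead of 4 were at least 1.5-fold higher, without Cd44, against 3.35% and 3.58% of all genes. At a mean of at least 5 FPKM 3 members were, without Tcf7, against 3.83% of all genes. A higher pseudocount shrinks ratios by construction, and for the scalings the cause was not tested. Genes under 1 FPKM rest on few fragments.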

Other observations

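Partner genes of the members were looked at in lists added after the members' values were seen. The ephrin-B ligands that EphB receptors meet outside the crypt base differed little. Efnb1 was at 34.1 FPKM in the Pkm2-/- library and 33.3 FPKM in the WT library, and Efnb2 was at 18.7 FPKM in the Pkm2-/- library and 15.0 FPKM in the WT library, 1.25-fold higher (95% counting interval 1.16 to 1.34).

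Transcripts of BMP signalling, a pathway that opposes Wnt signalling along the crypt axis, went both ways. Of 16 ligand, receptor and SMAD genes, 11 had a mean of at least 1 FPKM, with a median log2 ratio of 0.13, against 0.06 for all genes. Of these, 6 had ratios above 0 and 5 below, a split near that of all genes, 58.8% of which had ratios above 0. The receptor Bmpr1a stood at 26.6 FPKM in the Pkm2-/- library and 18.9 FPKM in the WT library, 1.41-fold higher (95% counting interval 1.33 to 1.49). The signal transducer Smad1 was at 23.1 FPKM in the Pkm2-/- library and 17.1 FPKM in the WT library, and the inhibitor Smad6 was at 6.82 FPKM in the Pkm2-/- library and 4.59 FPKM in the WT library. The ligand Bmp3 was the gene of the list at least 1.5-fold apart, a size of decrease reached by 5.29% of all genes. It stood at 7.10 FPKM in the Pkm2-/- library and 11.2 FPKM in the WT library, 1.58-fold lower (95% counting interval 1.46 to 1.72). Bmp2, Smad4, Smad5 and Smad7 were lower by less than 1.5-fold. None of the 6 BMP antagonists reached a mean of 1 FPKM.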
